A study of Mus musculus with 24 samples.

Results

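The nuclear tRNA genes for the aromatic amino acids phenylalanine, tyrosine and tryptophan were followed through 3 kinds of measurement in mouse embryonic stem cells. They were contact with TET2 protein, recovery with an antibody against 5-hydroxymethylcytosine (hm5C), and the small RNA fragments cut from tRNAs with and without Tet2. Members were taken by name alone: every tRNA gene whose name ends in PheGAA, TyrGTA or TrpCCA, that is, the amino acid followed by the anticodon. This gave 25 of the 435 tRNA genes in the tables, with 7 genes for phenylalanine, 10 for tyrosine and 8 for tryptophan. Each gene had 3 fragment kinds in the fragment table, so 75 of its 1305 entries belonged to them.

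A tRNA carries an amino acid to the ribosome and reads the matching codon with its anticodon. Each of the 3 amino acids is served by a single nuclear anticodon in these tables. The tRNA for phenylalanine carries wybutosine or a relative next to its anticodon. That for tyrosine is made from a precursor with an intron that must be spliced out, and it receives queuosine in the anticodon. That for tryptophan is charged by WARS and reads a single codon. Cells also hold shorter RNAs cut from tRNAs. By common usage, tRF3a and tRF3b name shorter and longer fragments from the 3′ end, and tRF5 names fragments from the 5′ end. The limits used for these kinds are not given in the sources used here. TET2 is an enzyme that converts 5-methylcytosine to hm5C by oxidation.

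All cells were grown on gelatin with leukemia inhibitory factor, 3 µM CHIR99021 and 1 µM PD0325901. For CLIP (crosslinking and immunoprecipitation), E14 cells with the Tet2HA-His label were used as 2 independent clones, 65 and 75. They received 500 µM 4-thiouridine for 4 hours and 400 mJ/cm2 of UVB, with 2 TET2 CLIP libraries and 2 inputs per clone. For RIP (RNA immunoprecipitation), untreated cells of strain label B6;129 gave 2 hm5C RIP and 2 input libraries. For small RNA, untreated cells gave RNA of 14 to 38 nt in 2 experiments of 3 control and 3 Tet2 knockout libraries each. Controls were WT in experiment 1 and E14 in experiment 2, all under the strain label B6; 129, and the knockout samples came as independent sets. Clone 65 and clone 75 are single clones, no untagged CLIP control was analysed here, and the construction of the knockout lines is not given in the sources used here. Control line, knockout set, library kit and sequencing run differed together between the small RNA experiments.

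Total counts ran from 221060 to 4729463 in CLIP and from 1564014 to 4889943 in RIP. The fragment columns held 96070 to 173450 tRNA-derived counts, which are only part of each library. Replicates were separate cultures per the series' design text. Their spread exceeded counting error. The chi-square of replicate pairs, divided by its degrees of freedom, was 1.80 to 2.75 in CLIP, 20.9 to 32.5 in RIP and 1.79 to 5.39 in 10 of the 12 small RNA pairs. The pairs with WT replicate 1 of experiment 1 stood apart at 34.3 and 36.5. Of 10 embryonic stem cell markers, 10 were at 1 CPM (counts scaled to a common library size) or more in every CLIP input, beside 2 of 6 fibroblast, 1 of 5 endoderm and 3 of 4 trophoblast markers. Their part in the results was not tested.

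The genes lie on few chromosomes. In RefSeq (GRCm38.p6) the phenylalanine genes are on chromosomes 5, 10, 13, 14 and 19, the tyrosine genes on 3, 5, 13 and 14, and the tryptophan genes on 10, 11 and 13, with the same number of genes per chromosome as in the tables. Where a chromosome held a single gene of an anticodon, the gene could be matched. Thus chr5.tRNA1316-PheGAA is n-TFgaa7 (chromosome 5, 125406055 to 125406127), and chr10.tRNA971-PheGAA is n-TFgaa3 (chromosome 10, 80248964 to 80249036). On chromosome 14, chr14.tRNA462-PheGAA is n-TFgaa5 (118089525 to 118089597) and chr14.tRNA192-TyrGTA is n-TYgta10 (51089489 to 51089578). The fifth match is chr5.tRNA109-TyrGTA, n-TYgta9 (chromosome 5, 30888083 to 30888171). The other 20 genes were left without coordinates. Genes of phenylalanine span 73 bases and those of tryptophan 72, while those of tyrosine span 86 to 93 with a median of 89.

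The CLIP libraries asked which RNAs TET2 touches. The tRNA for tyrosine was recovered with TET2 well above input in both clones, more strongly in clone 65, and that for tryptophan rose as well. The tRNA for phenylalanine was counted so rarely that its call rested on 1 library. Reads from near-identical genes cannot be assigned to one copy with certainty, so the counts of all genes with one anticodon were summed and tested beside the other sums and genes.

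Tyrosine came first by level. Summed over its 10 genes it had 28 and 38 counts in the inputs of clone 65 and 10 and 34 in those of clone 75. The much smaller TET2 libraries held 44 and 30 counts in clone 65 and 45 and 17 in clone 75. On the CPM scale this was 8.25 and 6.60 in the inputs and 231 and 147 in TET2 CLIP of clone 65, and 12.5 and 15.4 against 96.1 and 64.0 in clone 75. Every TET2 library was above every input. The 4 inputs averaged 10.7 ± 4.01 CPM and the 4 TET2 CLIP libraries 135 ± 72.9 (SD, n = 4). The log2 change was 3.60 over both clones (SE 0.24, edgeR quasi-likelihood test, adjusted p = 3.24e-13), 4.68 in clone 65 (SE 0.33, adjusted p = 1.69e-12) and 2.52 in clone 75 (SE 0.35, adjusted p = 3.25e-06). In bulk libraries, fewer cells with an RNA and less RNA per cell cannot be told apart.

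Tryptophan, summed over 8 genes, had 10 and 20 counts in the inputs of clone 65, 4 and 11 in those of clone 75, and 4, 4, 9 and 8 in the TET2 libraries of clone 65 and then clone 75. Its level was 4.10 ± 1.05 CPM in input and 22.5 ± 5.15 CPM in TET2 CLIP (SD, n = 4). The TET2 libraries lay within a narrow band of 19.2 to 30.1 CPM, all above the inputs at 2.95 to 5.01 CPM. The log2 change over both clones was 2.41 (SE 0.51, edgeR adjusted p = 0.0009). It was 2.61 in clone 65 (edgeR adjusted p = 0.0288) and 2.21 in clone 75 (edgeR adjusted p = 0.0187). The sum passed the filter on low counts through its TET2 libraries alone. Without that filter both calls per clone were lost, at 2.15 in clone 65 (edgeR adjusted p = 0.114) and 1.96 in clone 75 (edgeR adjusted p = 0.0765). These calls per clone were lost in 6 of the 8 fits that left out 1 library each, with log2 changes of 2.38 to 2.68 and of 1.88 to 2.48, while the call over both clones held in 8 of 8.

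Phenylalanine, summed over 7 genes, had 6, 7, 1 and 5 counts in the inputs and 0, 12, 7 and 4 in TET2 CLIP, in the same order of libraries. The levels in TET2 CLIP were thus 0, 58.7, 14.9 and 15.1 CPM beside 1.22 to 2.27 CPM in the inputs. The groups overlapped, since TET2 CLIP replicate 1 of clone 65 held no count, and a count of 0 there allows up to 15.8 CPM (3 counts). The log2 change over both clones was 3.60 (SE 0.67, edgeR adjusted p = 0.00015). Without TET2 CLIP replicate 2 of clone 65 it was -0.88 (edgeR adjusted p = 0.908). In clone 65 the log2 change was 4.34 (edgeR adjusted p = 0.000975), and without any 1 of 3 libraries that call was lost, with adjusted p-values of 0.084 without input replicate 1, 0.115 without input replicate 2 and 0.752 without TET2 CLIP replicate 2. In clone 75 it was 2.87 and missed the threshold (edgeR adjusted p = 0.0643). There it passed with library size alone (3.00, edgeR adjusted p = 0.0362), without TET2 CLIP replicate 1 of clone 65 (2.77, edgeR adjusted p = 0.0392) and without TET2 CLIP replicate 2 of clone 65 (2.76, edgeR adjusted p = 0.0484).

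All 3 sums were thus called higher over both clones. Each reached the minimum level of the count filter, 14.6 CPM before the TMM scaling by which edgeR makes libraries comparable, in 2 or more TET2 libraries and in at most 1 input, so the filter favoured sums that were high with TET2. With no filter the 3 calls over both clones held, at 3.26 for phenylalanine, 2.06 for tryptophan and 3.25 for tyrosine. Of all sums and genes tested, 8.64% were called higher over both clones, and of the tRNA sums 97.3% (36 of 37, median log2 change 3.02). Per clone the same shares were 7.93% and 94.6% in clone 65 and 5.88% and 81.1% in clone 75. Nearly all tRNA sums were thus called, whatever their amino acid. Ordered by log2 change among the 37 tRNA sums, phenylalanine was 10, tyrosine 11 and tryptophan 28.

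**Figure D1:**
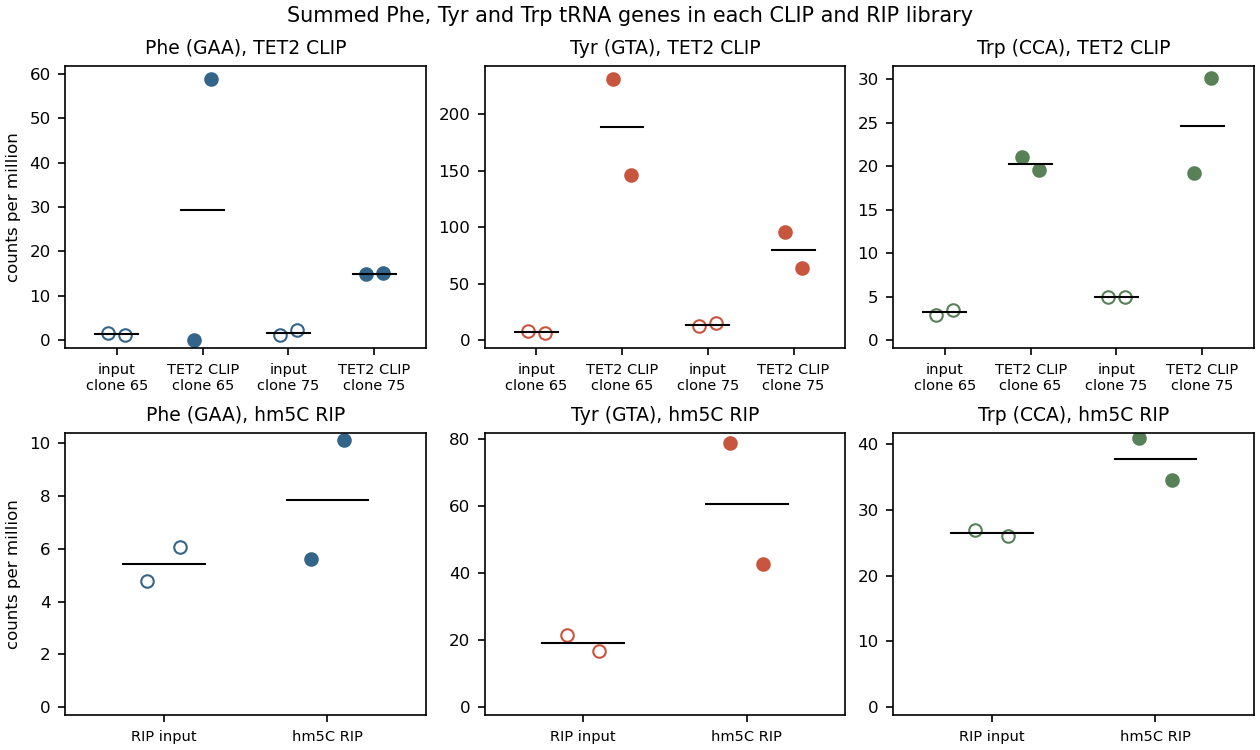
Level (CPM, linear axes) of the summed genes of each amino acid in the CLIP libraries (upper panels) and the RIP libraries (lower panels). Each point is 1 library, open for input and filled for TET2 CLIP or hm5C RIP, and black lines are means of 2 libraries. Tyrosine lies at 64.0 to 231 CPM in TET2 CLIP, above all its inputs, and 1 TET2 CLIP library of clone 65 had no count of phenylalanine.

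The clones differed for tyrosine. The log2 change was smaller in clone 75 than in clone 65 by 2.16 (clone 75 minus clone 65 -2.16, SE 0.47, edgeR adjusted p = 0.00757). The same difference was -0.40 for tryptophan (SE 0.89, edgeR adjusted p = 0.885) and -1.47 for phenylalanine (SE 1.31, edgeR adjusted p = 0.649), with too wide an error to tell. Of all sums and genes, 2.25% were lower in this difference, and of tRNA sums 24.3% (9 of 37, median -1.04). For tyrosine the call was lost without input replicate 2 of clone 65 (-1.96, edgeR adjusted p = 0.069), without TET2 CLIP replicate 1 of clone 65 (-1.73, edgeR adjusted p = 0.052) and without input replicate 2 of clone 75 (-1.89, edgeR adjusted p = 0.344).

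Ratios between the amino acids within a library need no scaling, but with 2 libraries a group their exact permutation test within clones cannot go below p = 0.0556. The mean log2 ratio of tryptophan to tyrosine was -1.17 in input and -3.03 in TET2 CLIP of clone 65, and -1.40 and -1.65 in clone 75. Over both clones it was lower by 1.05 with TET2, beside a pooled SD of 0.52 (exact permutation test, two-sided p = 0.167). For tyrosine to phenylalanine the difference was 0.59 (exact permutation p = 1), and for tryptophan to phenylalanine it was -0.46 (exact permutation p = 0.722).

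Of the 25 genes, 5 had enough counts for a test of their own in CLIP, 4 of tyrosine, 1 of tryptophan and none of phenylalanine. These 5 were called higher over both clones, beside 8.99% of all features and 90% of the tRNA genes tested. All 5 reached the filter's minimum in TET2 libraries and in 0 inputs. That count and the tests of these genes were thus largely fixed by the filter, and nothing is read from them. The log2 changes of single genes are given as descriptions only. Of the 20 genes not tested, 4 had counts in input and 0 in every TET2 library. For chr3.tRNA28-TyrGTA, the gene with 32.1% of the tyrosine counts, levels were 5.0, 2.09, 6.26 and 4.09 CPM in the inputs and 52.5, 43.9, 29.9 and 11.3 CPM in TET2 CLIP. All TET2 libraries were above all inputs (log2 change 3.07). For chr14.tRNA192-TyrGTA counts were 1, 11, 1 and 6 in input and 9, 6, 12 and 9 in TET2 CLIP (log2 change 4.19, SE 0.53). The log2 change was 3.93 for chr13.tRNA971-TyrGTA and 4.21 for chr3.tRNA27-TyrGTA.

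In the other amino acids a single gene held most counts. The tryptophan gene chr13.tRNA109-TrpCCA held 64.3% of them, with 7, 12, 1 and 6 counts in input and 2, 2, 7 and 8 in TET2 CLIP (log2 change 2.68, SE 0.72). The next by count, chr10.tRNA1292-TrpCCA, named after its values were seen, had 3, 4, 1 and 4 counts in input and 0 in all 4 TET2 libraries. Its inputs lay at 0.695 to 1.82 CPM. In the TET2 libraries 3 counts are 6.41 to 15.8 CPM, so no direction can be read for this gene. The next by mean CPM, chr11.tRNA1820-TrpCCA, had 1 count in input and 1, 1, 1 and 0 in TET2 CLIP. For phenylalanine, chr13.tRNA1000-PheGAA held 73.8% with 6, 7, 1 and 4 counts in input and 0, 6, 5 and 2 in TET2 CLIP, while chr19.tRNA108-PheGAA had 0 in every input and 0, 3, 1 and 0 in TET2 CLIP. No count at all was found for 3 phenylalanine and 2 tryptophan genes.

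The RIP libraries asked which RNAs carry hm5C. The tRNA for tyrosine was higher in the hm5C libraries than in input, while those for tryptophan and phenylalanine did not pass the test. Within the tRNA counts, all 3 amino acids took a larger share in hm5C RIP than in input, and each ranked higher among the anticodons. Their changes in share were not compared with those of other anticodons.

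Tyrosine had 85 and 74 counts in input and 140 and 101 in hm5C RIP, or 21.4 and 16.6 CPM against 78.6 and 42.6 CPM. Both hm5C libraries were above both inputs. The group means were 19.0 ± 3.42 and 60.6 ± 25.4 CPM (SD, n = 2), and the log2 change was 1.66 (SE 0.34, edgeR adjusted p = 0.000848), rank 4 among 44 tRNA sums. A single gene, chr13.tRNA972-TyrGTA, held 6 of the 159 tyrosine counts in input and 86 of the 241 in hm5C RIP. Of all sums and genes 32.5% were called higher, and of the tRNA sums 11.4% (5 of 44, median log2 change -0.33). The call was lost without RIP input replicate 2 (log2 change 1.19, edgeR adjusted p = 0.0776).

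Tryptophan had 107 and 116 counts in input and 73 and 82 in hm5C RIP, at 27.0 and 26.0 CPM against 41.0 and 34.6 CPM. The hm5C libraries were higher, but the log2 change of 0.51 (SE 0.29) did not pass (edgeR adjusted p = 0.160). It passed with library size alone (0.87, edgeR adjusted p = 0.0247) and without hm5C RIP replicate 2 (0.86, edgeR adjusted p = 0.00564). Phenylalanine had 19 and 27 counts against 10 and 24, at 4.79 and 6.06 CPM against 5.61 and 10.1 CPM, so its groups overlapped (log2 change 0.55, SE 0.50, edgeR adjusted p = 0.379). A single protein-coding gene, Acsl6, an acyl-CoA synthetase, held 55.2% and 60.6% of all counts in the hm5C libraries and 0.255% and 0.167% in input, so RIP changes depend on scaling. Without Acsl6 and with library size alone, the median of all sums moved from 0.02 to 2.00, and phenylalanine (2.17), tryptophan (2.11) and tyrosine (3.26) were all called higher.

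As a share of tRNA counts, which needs no such scaling, tyrosine went from 0.0874 to 0.115% in input to 0.380 to 0.733% in hm5C RIP. Tryptophan went from 0.137 to 0.144% to 0.309 to 0.382%, and phenylalanine from 0.0256 to 0.0319% to 0.0524 to 0.0904%. By count among all anticodons, tyrosine ranked 28 to 32 in input and 16 to 18 in hm5C RIP. Tryptophan ranked 24 to 25 and then 19 to 20, and phenylalanine 40 to 41 and then 35 to 39. The changes in share were not compared with those of other anticodons, and a share depends on all other tRNA counts. The higher shares can therefore not be read as particular to these 3 amino acids. With 2 libraries a group, exact permutation cannot go below p = 0.333, so the shares were not tested, and the 3 ratios between amino acids, at exact permutation p = 0.333 to 1, could not have passed.

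By gene, 9 of 25 passed the count filter in RIP, and 4 of them were higher, beside 33% of all features and 18.8% of the tRNA genes tested. Of the 9, 4 reached the filter's minimum in hm5C RIP and in 0 inputs, among them the 3 called tyrosine genes, and 4 genes not tested had counts in input and 0 in hm5C RIP. The filter thus favoured the tyrosine calls, and nothing is read from them. With no filter, 1 member gene was called higher. The gene chr13.tRNA972-TyrGTA held 23% of the tyrosine counts of input and hm5C RIP together. It went from 2 and 4 counts in input to 56 and 30 in hm5C RIP. On the CPM scale this was 0.479 and 0.842 against 36.3 and 12.3. Its log2 change was 5.07 (SE 0.72), given as a description only. With 6 of 159 tyrosine counts in input and 86 of 241 in hm5C RIP, this gene carried much of the rise of the sum. The sum without this gene was not tested. The other called tyrosine genes were chr3.tRNA28-TyrGTA (12 and 4 counts against 19 and 23, log2 change 2.54) and chr13.tRNA970-TyrGTA (10 and 5 against 12 and 18, log2 change 2.13).

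The tryptophan gene with the most counts in CLIP had the most in RIP too. It was chr13.tRNA109-TrpCCA, with 46 and 50 counts in input and 45 and 47 in hm5C RIP (log2 change 1.15, SE 0.36, edgeR adjusted p = 0.0281). The gene chr11.tRNA1820-TrpCCA had 31 and 31 counts against 18 and 8. For phenylalanine, chr19.tRNA106-PheGAA had 9 and 9 counts against 10 and 12, and chr13.tRNA1000-PheGAA had 6 and 6 against 0 and 11. How many members were called rested on single libraries, from 1 without RIP input replicate 2 and 2 without RIP input replicate 1 to 7 without hm5C RIP replicate 2.

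The small RNA libraries asked how tRNA fragments change when Tet2 is lost. Before that contrast, the 3 amino acids had distinct fragment profiles, and that of tyrosine differed most between the experiments. Phenylalanine and tryptophan gave mostly tRF3a in both. Tyrosine gave mostly tRF5 and tRF3b in experiment 1 but mostly tRF3a in experiment 2.

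As a share of each amino acid's fragment counts, tRF3a made up 81.0 to 91.2% of phenylalanine fragments over the 6 libraries of experiment 1 and 81.1 to 88.2% over those of experiment 2. For tyrosine it was 11.3 to 30.5% in experiment 1 and 81.7 to 88.5% in experiment 2. In the controls alone it was 15.6, 29.6 and 30.5% in WT and 82.5, 86.0 and 81.7% in E14. The ranges for tyrosine did not overlap between experiments, in the controls or over all libraries. Tryptophan differed less, with 68.5 to 85.9% in experiment 1 and 85.2 to 90.7% in experiment 2. In its controls alone the share was 68.5 to 81.5% in WT and 85.2 to 86.7% in E14, also without overlap. Cell line, kit, run and knockout set cannot be told apart here.

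Levels show the same. In WT the tyrosine tRF3a sum was 526, 1064 and 977 CPM, and in E14 it was 10300, 12876 and 9368 CPM, where CPM is scaled to tRNA-derived counts within each experiment. Among the tRF3a sums of 52 anticodons it ranked 31 to 38 in experiment 1 and 3 to 6 in experiment 2. Tryptophan tRF3a ranked 6 to 10 and 9 to 13, and phenylalanine tRF3a 11 to 19 and 14 to 21. Among tRF3b sums, phenylalanine ranked 39 to 43 in experiment 1 and 20 to 30 in experiment 2, and tyrosine 25 to 28 and 8 to 10.

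**Figure D2:**
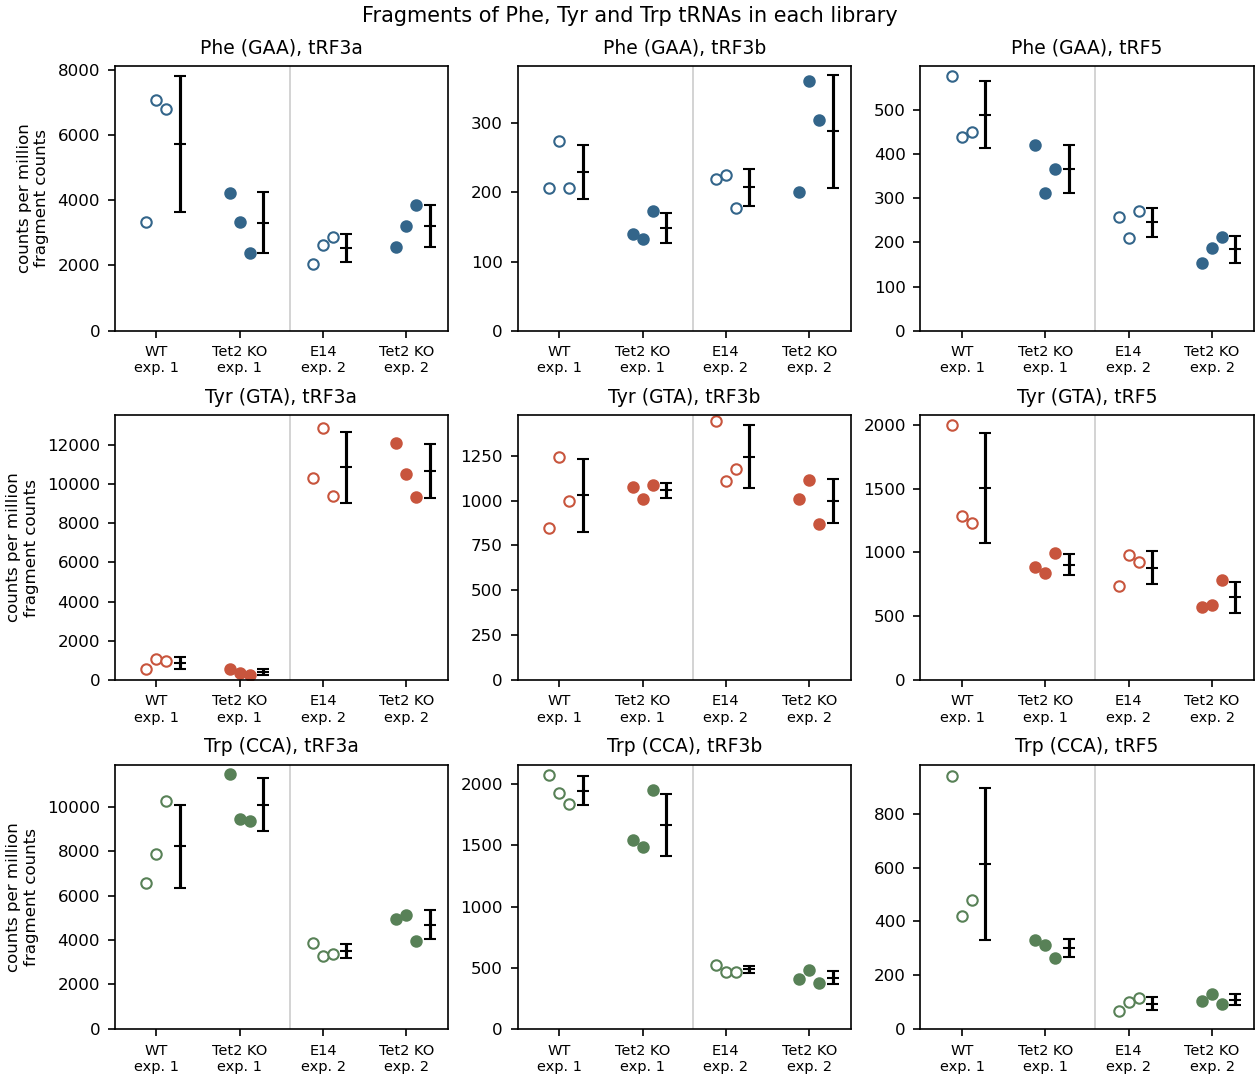
Level (CPM, linear axes that differ between panels) of each fragment kind (columns) of each amino acid (rows) in the 12 small RNA libraries. Each point is 1 library, open for WT or E14 and filled for Tet2 knockout (KO), and black marks are means with SD over 3 libraries. Tyrosine tRF3a lies at 265 to 1064 CPM in experiment 1 and at 9352 to 12876 CPM in experiment 2.

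In experiment 1, with TMM scaling over all fragments, Tet2 knockout cells had lower tRF5 of tyrosine and tryptophan and lower tRF3a of tyrosine than WT. Fragments of phenylalanine were lower in all 3 kinds by value without passing the test, and tRF3a of tryptophan was not lower. In experiment 2 no sum passed. The fold changes depend on how libraries are scaled, so the values by library come first.

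Tyrosine tRF3a had 51, 116 and 104 counts in WT and 88, 56 and 29 in the knockout, at 526, 1064 and 977 CPM against 536, 372 and 265 CPM. WT replicate 1 was low, near knockout replicate 1, so the groups overlapped. The means were 856 ± 288 and 391 ± 137 CPM (SD, n = 3), and the log2 change was -1.11 (SE 0.32, edgeR adjusted p = 0.0141). That call was lost without WT replicate 2 (-0.92, edgeR adjusted p = 0.0503), WT replicate 3 (-1.04, edgeR adjusted p = 0.0546), knockout replicate 2 (-1.07, edgeR adjusted p = 0.0706) or knockout replicate 3 (-0.91, edgeR adjusted p = 0.0636). In experiment 2 the sum was 10300, 12876 and 9368 CPM in E14 and 12103, 10533 and 9352 CPM in the knockout, from 1361, 1540 and 899 and from 2299, 1693 and 1318 counts. The groups overlapped throughout (log2 change -0.02, edgeR adjusted p = 0.954).

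Tyrosine tRF5 was 2003, 1284 and 1231 CPM in WT (194, 140 and 131 counts) and 883, 838 and 995 CPM in the knockout (145, 126 and 109 counts). All knockout libraries were below all WT libraries, and WT replicate 1 was the highest. The log2 change was -0.73 (SE 0.20, edgeR adjusted p = 0.00659), and it missed the threshold without knockout replicate 2 (-0.68, edgeR adjusted p = 0.0512). As a share of all tRF5 counts the order turned, with 0.137, 0.173 and 0.179% in WT and 0.213, 0.211 and 0.211% in the knockout, also without overlap. Scaled within tRF5, the log2 change was -0.007 (edgeR adjusted p = 0.975). In experiment 2 tyrosine tRF5 was 734, 978 and 927 CPM in E14 and 569, 585 and 788 CPM in the knockout, with a log2 change of -0.45 (edgeR adjusted p = 0.191).

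Tyrosine tRF3b gave no call. It was 846, 1247 and 996 CPM in WT against 1078, 1010 and 1087 CPM in the knockout (log2 change 0.04, SE 0.18, edgeR adjusted p = 0.842). In E14 it was 1446, 1112 and 1178 CPM, against 1011, 1114 and 873 CPM in that knockout (log2 change -0.32, edgeR adjusted p = 0.313).

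Tryptophan tRF5 was 939, 422 and 479 CPM in WT (91, 46 and 51 counts) and 329, 312 and 265 CPM in the knockout (54, 47 and 29 counts). The groups did not overlap, but WT replicate 1 held nearly as many counts as the other two together. The log2 change was -1.01 (SE 0.29, edgeR adjusted p = 0.0134). Without WT replicate 1 it was -0.55 (edgeR adjusted p = 0.0544), without knockout replicate 2 -1.03 (edgeR adjusted p = 0.0635) and without knockout replicate 3 -0.93 (edgeR adjusted p = 0.0765). Scaled within tRF5 it was -0.24 (edgeR adjusted p = 0.642), and the shares of tRF5 counts overlapped, with 0.0567 to 0.0696% in WT and 0.0562 to 0.0794% in the knockout. In experiment 2 this sum held 9, 12 and 11 counts in E14 and 20, 21 and 13 in the knockout (log2 change 0.24, edgeR adjusted p = 0.653).

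Tryptophan tRF3a, the most counted of the 9 sums in experiment 1, was 6555, 7857 and 10244 CPM in WT and 11476, 9460 and 9343 CPM in the knockout. WT replicate 3 lay among the knockout libraries (log2 change 0.30, SE 0.18, edgeR adjusted p = 0.157), and without it the sum passed (0.46, edgeR adjusted p = 0.0402). In experiment 2 it was 3860, 3269 and 3355 CPM in E14 and 4959, 5145 and 3945 CPM in the knockout. There the groups did not overlap, with means of 3495 ± 319 and 4683 ± 646 CPM (SD, n = 3), but the sum did not pass (log2 change 0.42, edgeR adjusted p = 0.129). Tryptophan tRF3b had log2 changes of -0.23 in experiment 1 (edgeR adjusted p = 0.229) and -0.21 in experiment 2 (edgeR adjusted p = 0.568).

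Phenylalanine tRF3a was 3334, 7078 and 6804 CPM in WT and 4227, 3344 and 2374 CPM in the knockout, from 323, 772 and 724 and from 694, 503 and 260 counts. WT replicate 1 sat among the knockout libraries, and the log2 change of -0.79 (SE 0.34) did not pass (edgeR adjusted p = 0.0946). Without WT replicate 1 it did, at -1.05 (edgeR adjusted p = 0.000393). It also passed with the DESeq2 test (-0.78, adjusted p = 0.0487), with the replicate number as a block (-0.76, edgeR adjusted p = 0.0354) and when scaled within tRF3a (-1.12, edgeR adjusted p = 0.0163). In experiment 2 the level was 2051, 2642 and 2886 CPM in E14 and 2569, 3223 and 3860 CPM in the knockout, with a log2 change of 0.35 (edgeR adjusted p = 0.304). The rarer kinds of phenylalanine held 17 to 69 counts a library. Their log2 changes were -0.64 and 0.45 for tRF3b (edgeR adjusted p = 0.0953 and 0.300) and -0.41 and -0.42 for tRF5 (edgeR adjusted p = 0.137 and 0.289) in experiments 1 and 2.

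In experiment 1, 3 of 9 sums were thus called, all lower. Of all 135 sums tested 20.7% were lower, of tRF5 sums 39.1% and of tRF3a sums 20.5%. The median log2 change was 0.32 for tRF3a sums, 0.36 for tRF3b and -0.55 for tRF5, so tyrosine tRF3a moved against the median of its kind and both tRF5 sums with theirs. With library size alone, which moves the median of all sums from -0.14 to 0.39, none of the 9 was called, and the log2 changes were -0.68 for tyrosine tRF3a, -0.16 for tyrosine tRF5 and -0.39 for tryptophan tRF5. In experiment 2, 0 of 9 were called by edgeR and 0 by DESeq2, beside 11.4% of all sums, with 1 of 9 at an unadjusted p under 0.05 (edgeR, tryptophan tRF3a).

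**Figure D3:**
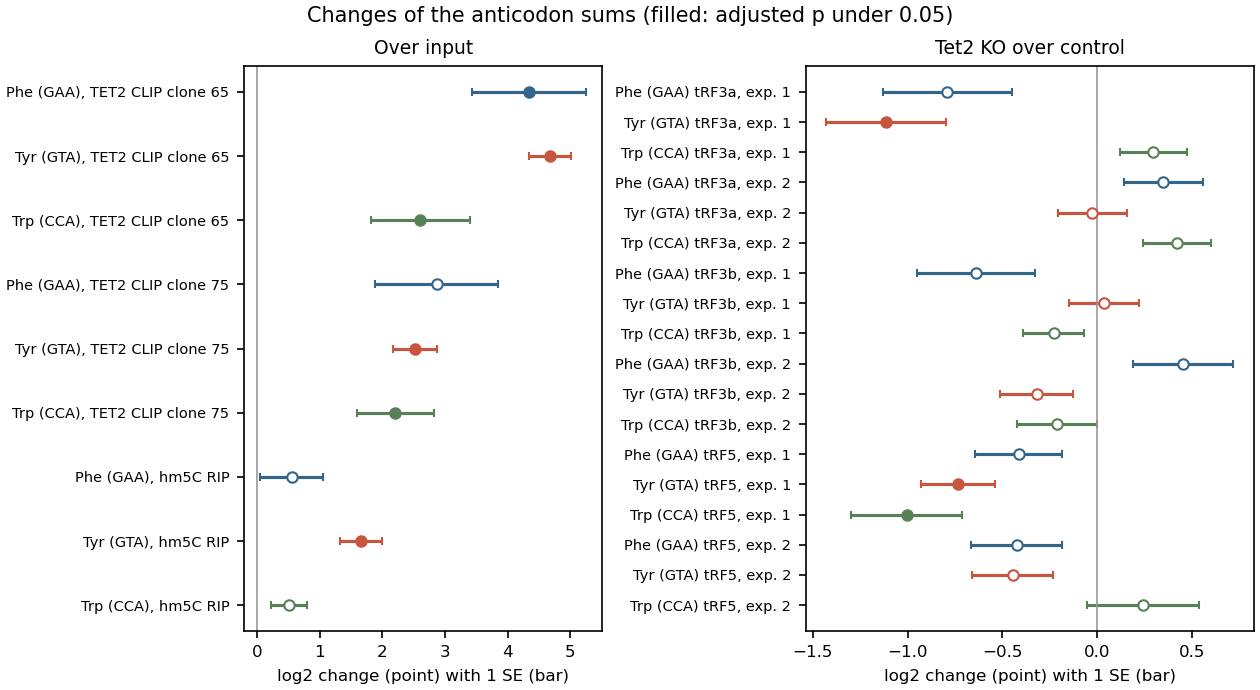
Log2 change of each anticodon sum (point) with 1 SE (bar) from edgeR, over input in CLIP and RIP (left) and Tet2 knockout (KO) over control for fragments (right), filled where the adjusted p was under 0.05. In experiment 1, tyrosine tRF3a (-1.11), tryptophan tRF5 (-1.01) and tyrosine tRF5 (-0.73) are filled, and in experiment 2 none is.

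Fitted over both experiments, 3 of the 9 sums were called, beside 35% of all sums. By kind, 36.2% of tRF5 sums were lower, and of tRF3a sums 18.2% were lower and 40.9% higher. Tyrosine tRF5 was lower (-0.58, SE 0.15, edgeR adjusted p = 0.00568), tyrosine tRF3a was lower (-0.54, SE 0.19, edgeR adjusted p = 0.0365) and tryptophan tRF3a was higher (0.39, SE 0.14, edgeR adjusted p = 0.0412). The calls held in 10, 3 and 8 of the 12 fits that left out 1 library each. Log2 changes over those fits were -0.65 to -0.36 for tyrosine tRF5, -0.64 to -0.30 for tyrosine tRF3a and 0.34 to 0.56 for tryptophan tRF3a. Tyrosine tRF5 lost its call without knockout replicate 1 or 2 of experiment 1, and tryptophan tRF3a without WT replicate 1, E14 replicate 2 or knockout replicate 1 or 2 of experiment 2. Tyrosine tRF3a kept its call without WT replicate 1, E14 replicate 3 or knockout replicate 1 of experiment 2.

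The test of the difference between experiments passed for 3 sums, whose log2 change was less negative, or above 0, in experiment 2. The log2 change in experiment 2 minus that in experiment 1 was 1.18 for phenylalanine tRF3a (SE 0.36, edgeR adjusted p = 0.0290), 1.15 for phenylalanine tRF3b (SE 0.39, edgeR adjusted p = 0.0396) and 1.14 for tyrosine tRF3a (SE 0.39, edgeR adjusted p = 0.0396). Of all sums 15.3% were higher in this difference, of tRF3a sums 29.5% and of tRF3b sums 4.35%. None of the 3 was called with DESeq2 size factors, with the DESeq2 test or with library size alone, nor with the replicate number as a block. The calls held in 6, 5 and 5 of the 12 fits that left out 1 library each. All 3 were lost without WT replicate 2 (0.53, 0.48 and 0.48) or any 1 knockout library of experiment 1 (0.52 to 0.91). Both tRF3a calls were also lost without WT replicate 3, phenylalanine tRF3a without knockout replicate 3 of experiment 2, phenylalanine tRF3b without E14 replicate 2 or knockout replicate 2 or 3 of experiment 2, and tyrosine tRF3a without knockout replicate 1 or 2 of experiment 2.

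Ratios between amino acids within a library need no scaling between libraries. For tRF3a the ratio of tryptophan to tyrosine was compared first. The log2 ratio was 3.63, 2.88 and 3.38 in WT and 4.41, 4.65 and 5.12 in the knockout of experiment 1. It was -1.42, -1.98 and -1.48 in E14 and -1.29, -1.03 and -1.24 in the knockout of experiment 2. In each experiment every knockout library was above every control library, although the experiments themselves lay on opposite sides of 0.

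The mean difference was 1.43 in experiment 1, 0.44 in experiment 2 and 0.93 over both. Its exact permutation p within experiments was 0.005 (two-sided), the smallest the design allows. Adjusted over the 33 ratios compared it was 0.165, so it did not pass. Without any 1 library the difference stayed between 0.83 and 1.02. The tryptophan to phenylalanine ratio differed by 1.07 and 0.07 (over both 0.57, exact permutation p = 0.065, adjusted p = 0.3), and the tyrosine to phenylalanine ratio by -0.37 and -0.36 (over both -0.36, exact permutation p = 0.06, adjusted p = 0.3).

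Within tryptophan, the tRF3a share was higher on average in both knockouts. That kind made up 75.7 ± 6.61% of tryptophan fragments in WT and 83.6 ± 2.60% in the knockout (SD, n = 3). In experiment 2 it was 85.7 ± 0.895% in E14 and 89.8 ± 0.731% in the knockout, with no overlap there. The mean difference was 6.01 percentage points (exact permutation within experiments, two-sided p = 0.01, adjusted over 27 shares p = 0.135), and 4.22 points without WT replicate 1. The tRF3b share of tryptophan differed by -4.18 points on average, with 18.4 ± 3.53% in WT and 13.9 ± 2.72% in the knockout, and 11.9 ± 0.236% in E14 and 8.09 ± 0.592% in that knockout (exact permutation p = 0.01, adjusted p = 0.135). Neither passed after adjustment. Over all anticodons, the median log2 change over both experiments was 0.25 for tRF3a sums and -0.40 for tRF5 sums. As a share of all tRF3a counts, tryptophan was lower in the knockout of experiment 1, at 4.84, 4.76 and 5.88% in WT and 4.35, 4.35 and 4.20% there. In experiment 2 it was 2.73, 2.14 and 2.41% in E14 and 2.83, 3.11 and 2.45% in that knockout. A shift particular to tryptophan is therefore not shown.

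Tyrosine and phenylalanine gave no such common shift. The tRF3b share of tyrosine was 30.3 ± 4.86% in WT and 45.0 ± 1.63% in the knockout of experiment 1, without overlap. It was 9.76 ± 2.12% and 8.14 ± 0.878% in experiment 2, with overlap. Over both experiments that difference was 6.54 points (exact permutation p = 0.09, adjusted p = 0.3). For phenylalanine tRF3a the difference was 0.515 points (exact permutation p = 0.87).

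**Figure D4:**
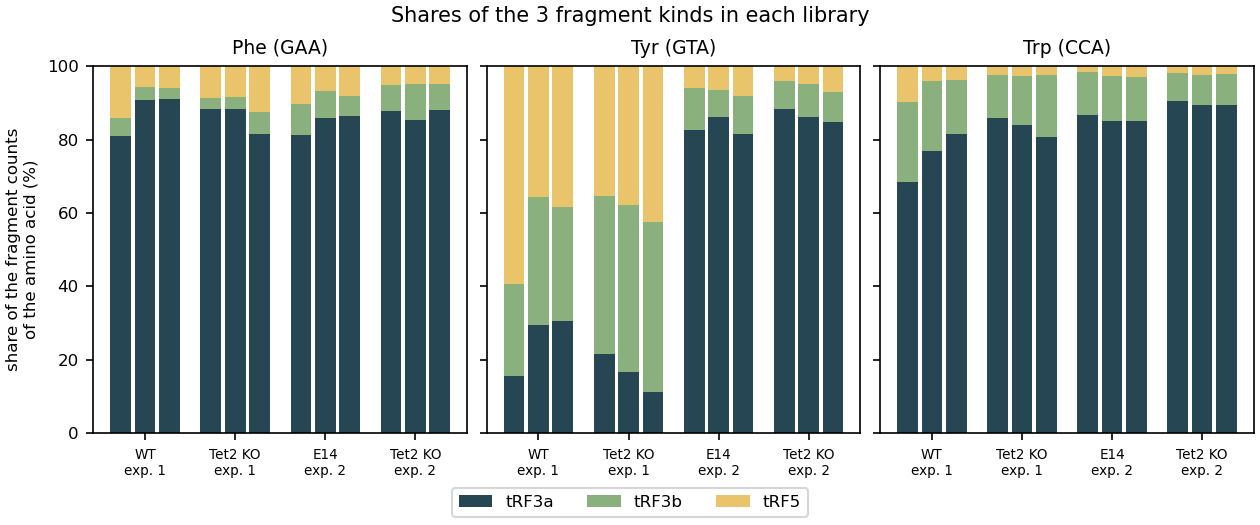
Share (percent) of each amino acid's fragment counts that was tRF3a, tRF3b or tRF5, as 1 stacked bar per small RNA library in the order of replicates 1 to 3 of each group. The tRF3a part of tyrosine is 11.3 to 30.5% in experiment 1 and 81.7 to 88.5% in experiment 2.

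By gene copy, the most counted gene held 13.3 to 16.6% of an amino acid's tRF3a counts, beside 32.1 to 73.8% in CLIP and 23 to 50% in RIP. Tryptophan copies were near each other, while those of tyrosine and phenylalanine spread more. Over all 12 libraries the 8 tryptophan genes held 964 to 1395 tRF3a counts each (median 1361.5), the 10 tyrosine genes 478 to 1531 (median 851), and the 7 phenylalanine genes 240 to 946 (median 904). The phenylalanine gene with 240 was chr19.tRNA108-PheGAA. It had 8, 5 and 1 counts in WT and 15, 8 and 3 in the knockout of experiment 1, then 22, 28 and 23 in E14 and 46, 36 and 45 in the knockout of experiment 2. Over all 12 libraries together the same gene held the most phenylalanine tRF5 counts, 20.5% of them. That rested on experiment 2, with 17, 9 and 12 in E14 and 10, 10 and 19 in that knockout. In experiment 1 it had 3, 7 and 4 in WT and 5, 2 and 1 in the knockout. There chr5.tRNA1316-PheGAA had more, with 8, 13 and 12 in WT and 27, 10 and 12 in the knockout. Reads from near-identical copies may be split among them by the authors' counting, so values per gene are uncertain.

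**Figure D5:**
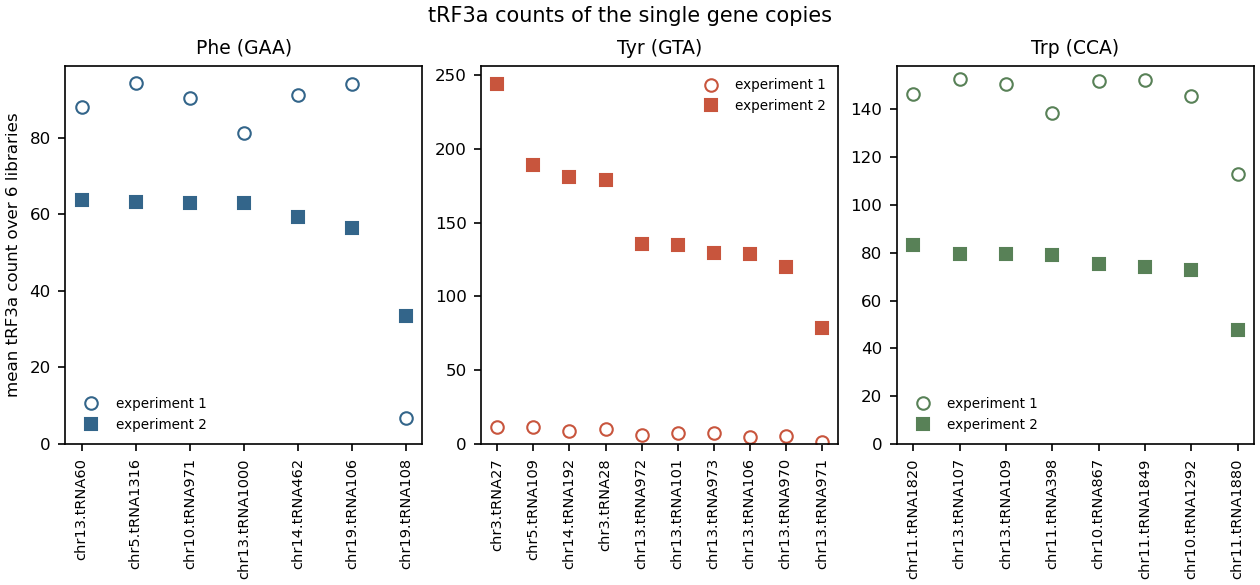
Mean tRF3a count of each gene copy (horizontal axis, by chromosome and number) over the 6 libraries of experiment 1 (open circles) and of experiment 2 (filled squares), with linear axes that differ between panels. Each tyrosine copy lies higher in experiment 2, and chr19.tRNA108 lies lowest of the phenylalanine copies in both experiments.

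For the tRF3a copies with the highest levels, counts followed their sums. The gene chr5.tRNA1316-PheGAA had 60, 139 and 128 counts in WT and 107, 95 and 37 in the knockout, then 40, 43 and 47 in E14 and 81, 81 and 88 in that knockout. For chr10.tRNA971-PheGAA they were 53, 129 and 119, then 117, 84 and 40, then 46, 60 and 45, and finally 84, 71 and 72. In both genes WT replicate 1 was the lowest WT library.

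The gene chr13.tRNA107-TrpCCA had 89, 120 and 141 counts in WT and 253, 190 and 124 in the knockout, then 58, 55 and 42 in E14 and 125, 112 and 86 in that knockout. For chr11.tRNA1820-TrpCCA they were 82, 107 and 138, then 239, 183 and 129, then 70, 62 and 49, and finally 128, 106 and 85. Knockout replicate 3 of experiment 1 stayed within the WT range in both, while in experiment 2 all knockout counts were above E14.

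For tyrosine the shift between experiments was seen in single genes. The gene chr3.tRNA27-TyrGTA had 8, 17 and 16 counts in WT and 15, 9 and 3 in the knockout, against 198, 254 and 174 in E14 and 359, 258 and 220 in that knockout. For chr5.tRNA109-TyrGTA they were 9, 14 and 17, then 13, 8 and 8, then 177, 205 and 103, and finally 292, 207 and 149. All 10 tyrosine genes had more tRF3a counts, without scaling, in each library of experiment 2 than in any of experiment 1. Of the phenylalanine genes, chr19.tRNA108-PheGAA did the same, with 1 to 15 counts in experiment 1 and 22 to 46 in experiment 2. No other phenylalanine gene and no tryptophan gene did. For example, chr10.tRNA971-PheGAA had 40 to 129 counts in experiment 1 and 45 to 84 in experiment 2. How many tRF3a entries of other amino acids shifted like tyrosine was not counted, so the shift cannot be called particular to tyrosine.

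The longer 3′ fragments were rarer. The gene chr3.tRNA28-TyrGTA had 16, 26 and 15 tRF3b counts in WT and 50, 34 and 33 in the knockout, then 60, 27 and 24 in E14 and 41, 30 and 26 in that knockout. All knockout counts of experiment 1 were above WT, whereas experiment 2 overlapped. For chr14.tRNA192-TyrGTA tRF3b counts were 16, 40 and 28, then 28, 43 and 31, then 40, 35 and 17, and finally 38, 31 and 25. Of tryptophan, chr11.tRNA1880-TrpCCA had 39, 40 and 44 tRF3b counts in WT and 43, 43 and 45 in the knockout, and chr13.tRNA107-TrpCCA had 31, 30 and 23 against 39, 30 and 33. The leading phenylalanine gene, chr13.tRNA1000-PheGAA, had 12, 14 and 3 tRF3b counts in WT and 12, 2 and 4 in the knockout. The other, chr19.tRNA108-PheGAA, held 0 to 9 per library.

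Of the 5′ fragments, chr5.tRNA109-TyrGTA held 27.8% of the tyrosine counts, with 78, 32 and 36 in WT and 41, 30 and 27 in the knockout, then 39, 27 and 25 in E14 and 29, 19 and 23 in that knockout. WT replicate 1 was far above the other libraries. In chr13.tRNA970-TyrGTA the tRF5 counts were 30, 32 and 35 in WT and 33, 17 and 20 in the knockout, then 19, 31 and 15 in E14 and 19, 19 and 32 in that knockout. The tryptophan gene chr11.tRNA1880-TrpCCA showed WT replicate 1 apart again, at 35 tRF5 counts beside 5 and 10, with 11, 11 and 11 in the knockout. For chr10.tRNA867-TrpCCA they were 18, 10 and 9 against 8, 7 and 2, and for chr5.tRNA1316-PheGAA 8, 13 and 12 against 27, 10 and 12.

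As single entries, 37 of 75 passed the count filter in experiment 1, and 1 was called higher and 2 lower, beside 38% of all entries called in either direction. They were chr10.tRNA1292-TrpCCA tRF3a (log2 change 0.60, edgeR adjusted p = 0.0269), chr11.tRNA398-TrpCCA tRF3b (-0.77, edgeR adjusted p = 0.0347) and chr13.tRNA970-TyrGTA tRF5 (-0.84, edgeR adjusted p = 0.0317). Without WT replicate 1, 13 member entries were called lower. In experiment 2, 35 of 75 passed the filter and 2 were higher, beside 9.64% of all entries. They were chr10.tRNA867-TrpCCA tRF3a (0.87, edgeR adjusted p = 0.00997) and chr13.tRNA107-TrpCCA tRF3a (0.70, edgeR adjusted p = 0.0422). Neither number was steady, with 0 to 4 called higher when 1 library was left out.

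Over both experiments 48 of 75 entries passed the filter, and 7 were higher and 2 lower, beside 25.2% of all entries. The 7 were all tRF3a of tryptophan, of 8 such genes, with log2 changes of 0.56 to 0.75, beside 42.7% of all tRF3a entries called higher. When 1 library was left out, 2 to 8 entries were called higher, the fewest without E14 replicate 3 or knockout replicate 1 of experiment 2. The 2 lower ones were chr13.tRNA972-TyrGTA tRF3a (-0.79, edgeR adjusted p = 0.0391) and chr5.tRNA109-TyrGTA tRF5 (-0.66, edgeR adjusted p = 0.0489). Between experiments, chr3.tRNA28-TyrGTA tRF3b differed, with a log2 change lower by 1.74 in experiment 2 (-1.74, SE 0.52, edgeR adjusted p = 0.0197), beside 13.8% of all entries lower in that difference. No member entry was called lower in it with library size alone, without the filter, or in 7 of the 12 fits that left out 1 library each (WT replicate 1, or any 1 E14 or knockout library of experiment 2).

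Other genes of the same tRNA pathways were read from a list of synthetases, modification, splicing and end-processing factors. In CLIP, 43 were tested and 3 were higher and 2 lower over both clones (median log2 change 0.04), beside 14.8% of all features called in either direction. The messenger RNAs of the synthetases that charge these tRNAs gave no call, in 0 of 6 tested. Their log2 changes were -0.08 for Farsa and 0.32 for Farsb (phenylalanine), 0.27 for the mitochondrial Fars2, -0.45 for Yars and 0.23 for the mitochondrial Yars2 (tyrosine), and -0.03 for Wars (tryptophan). Called higher were Rpph1, the RNA of RNase P that trims the 5′ end of tRNAs (2.61, edgeR adjusted p = 4.26e-16), Elac2, which trims the 3′ end (0.89, edgeR adjusted p = 0.0286), and Dicer1, an RNase that makes small RNAs (0.66, edgeR adjusted p = 0.00124). Pop1, a protein of RNase P (-0.84), and Thada, which acts with Ftsj1 in tRNA methylation (-0.82), were lower.

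The mitochondrial tRNA for tryptophan, mt-Tw, was tested as well. Its log2 change in CLIP was 1.16 in clone 65 and -1.14 in clone 75, neither passing, and the difference of clones was -2.30 (SE 0.60, edgeR adjusted p = 0.0300). In RIP, 5 pathway genes were tested and 1 was higher and 2 lower, beside 51.9% of all features called in either direction. There mt-Tw was lower in hm5C RIP than in input (222 against 56.9 CPM on average, log2 change -1.98, edgeR adjusted p = 0.00381), and Rpph1 was lower as well (-1.35, edgeR adjusted p = 0.00541). Thada, the gene called higher, averaged 0.435 CPM in input and 16.2 CPM in hm5C RIP (log2 change 5.09). With the filter's minimum at 2.97 CPM, it entered the test only through hm5C RIP, so nothing is read from its call.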

How the data were processed

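The 24 libraries were analysed from whole-number read counts deposited by the authors, per gene for CLIP and RIP and per tRNA gene and fragment kind for small RNA. Bowtie2 2.2.6, STAR 2.5.3a, cutadapt and UMI-tools with genome build mm10 were used, per the submitters' processing notes. The counting tool, the use of strand, the handling of reads shared by gene copies and the limits of the fragment kinds are not given in the sources used here. Groups followed the sample labels.

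Counts were tested with edgeR 4.0.16 in R 4.3.3 (robust quasi-likelihood test, TMM scaling, filterByExpr, Benjamini-Hochberg adjustment over all features, threshold 0.05), as single entries and with the genes of each anticodon summed in a second table that keeps all other features. A feature had to reach the filter's minimum in a number of libraries equal to the smallest group, so a member scarce in input entered only where the other group was high. Levels are CPM, scaled by TMM. CLIP was fitted over 8 libraries, RIP over 4, and small RNA per experiment and over 12. Ratios between amino acids (pseudocount 0.5) and shares of fragment kinds were compared by two-sided exact permutation within clones or experiments (Python 3.11.15, scipy 1.17.1). With 3 libraries against 3, p cannot go below 0.1. Simulated data with known answers were used to check each test.

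Members were named by rule: every anticodon sum, the 2 entries with the highest mean CPM per table, amino acid and fragment kind, and other called members. chr19.tRNA108-PheGAA tRF3a was named after its values were seen. The members, the lists and the tests were chosen with earlier results of these data known. Alternatives were DESeq2 1.42.0 size factors, its Wald test, library size alone, no count filter, leaving out each library or the most counted entry, a block for the replicate number, a pseudocount of 5, and RIP without Acsl6. Scaling within each fragment kind was added after seeing the data. Intervals and floors (3 counts) cover counting error only. No tRNA sequences are printed, since the reference tables used here hold none for these genes.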

Additional observations from a re-analysis of the deposited data

Results flagged for a closer look

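For 5 results the edgeR test of the difference between clones or between experiments passed. The TyrGTA sum in CLIP differed by -2.16 on the log2 scale (clone 75 minus clone 65). Among the fragments, 4 differed between the small RNA experiments (log2 change of experiment 2 minus that of experiment 1): PheGAA tRF3a by 1.18, PheGAA tRF3b by 1.15, TyrGTA tRF3a by 1.14, and chr3.tRNA28-TyrGTA tRF3b by -1.74. When 1 library was left out at a time, the TyrGTA call in CLIP held in 5 of 8 fits, and those of PheGAA tRF3a, PheGAA tRF3b and TyrGTA tRF3a in 6, 5 and 5 of 12. No member entry was called lower in 7 of those 12 fits. The 3 fragment sums were also not called with the DESeq2 test, library size alone or the replicate number as a block. Control line, knockout set, library kit and run changed together between the experiments, so their parts cannot be told apart.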

How the results depend on the processing

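Of 537 values of anticodon sums under alternative settings, 415 kept direction and side of the threshold, 90 kept direction but were no longer called, 14 became called and 18 reversed. Except where stated otherwise, the cause of a change was not tested. Depth limits several sums, among them those of CLIP, with 0 to 45 counts in TET2 libraries, PheGAA in RIP, with 10 to 27, PheGAA tRF3b, with 17 to 58, and TrpCCA tRF5, with 9 to 91.

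Calls of the PheGAA, TrpCCA and TyrGTA sums in CLIP over both clones held under each scaling, test and filter tried. Without the count filter 9 member genes were called there instead of 5, and TrpCCA alone lost its calls per clone, at 2.15 in clone 65 and 1.96 in clone 75. With library size alone, the TrpCCA difference of clones was 0.15 instead of -0.40. In RIP the 4 higher member genes became 1 without the filter, 2 with the DESeq2 test and 9 without Acsl6 and with library size alone.

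In experiment 1, called member entries were 4 lower with DESeq2 size factors, 0 higher and 4 lower with the DESeq2 test, 2 higher and 0 lower with library size alone, and 2 higher without the filter (otherwise 1 higher and 2 lower). Library size alone gave PheGAA tRF5 0.13, TrpCCA tRF3b 0.29, TrpCCA tRF5 -0.39, TyrGTA tRF3a -0.68 and TyrGTA tRF5 -0.16. Scaling within the fragment kind, chosen after seeing the data, gave TrpCCA tRF3a -0.039, TyrGTA tRF3b -0.28, PheGAA tRF5 0.29, TrpCCA tRF5 -0.24 and TyrGTA tRF5 -0.007, and it added calls of PheGAA tRF3a (-1.12, edgeR adjusted p = 0.0163), PheGAA tRF3b (-0.96, edgeR adjusted p = 0.0178) and TrpCCA tRF3b (-0.56, edgeR adjusted p = 0.00646). By construction this removes any change shared by a kind. In experiment 2 the 2 higher entries became 1 with DESeq2 size factors, 1 with its test and 1 without the filter. There library size alone gave TrpCCA tRF3b 0.054 and TyrGTA tRF3a 0.26, and no filter gave TyrGTA tRF3a 0.022.

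Over both experiments TyrGTA tRF3a lost its call with DESeq2 size factors (-0.43), the DESeq2 test (-0.43), library size alone (-0.21) and no filter (-0.46). TyrGTA tRF5 lost it with library size alone (-0.17) and within the kind (-0.032), and TrpCCA tRF3a within the kind (0.14). No entry was lower with library size alone (0). The differences between experiments of PheGAA tRF3a, PheGAA tRF3b and TyrGTA tRF3a were not called with DESeq2 size factors (1.00, 0.95 and 0.95), library size alone (0.99, 0.86 and 0.93) or the DESeq2 test (1.00, 0.95 and 0.96). Of member entries in that difference, 0 were lower with library size alone, and 5 were higher and 0 lower without the filter.

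Deviations of same-numbered replicates from their group means correlated at 0.0024 and 0.0059 in CLIP and 0.017 in RIP. They correlated at -0.233 to -0.067 in experiment 1 and -0.125 to 0.230 in experiment 2. With 2 libraries a group, CLIP gave a single value per clone and RIP a single value, and counts in TET2 libraries were low. This check can therefore not tell whether replicate numbers paired the samples there. With the replicate number as a block, TrpCCA was not called per clone (2.63 in clone 65, 2.30 in clone 75), nor was TrpCCA tRF3a over both experiments (0.39) or the difference of PheGAA tRF3a (1.17), PheGAA tRF3b (1.13) and TyrGTA tRF3a (1.15). With the block, 0 member entries were called higher and 0 lower in experiment 1, and 0 lower over both experiments, while PheGAA tRF3a in experiment 1 became called (-0.76, edgeR adjusted p = 0.0354).

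Leaving out 1 library at a time gave these ranges. In CLIP, PheGAA ran from -0.88 to 3.94 over both clones, from -4.51 to 5.11 in clone 65 and from -2.34 to 7.26 for the difference of clones. TrpCCA ran from 2.38 to 2.68 in clone 65, from 1.88 to 2.48 in clone 75 and from -0.60 to 0.0008 for the difference, and the TyrGTA difference from -2.52 to -1.73. In RIP, 1 to 7 member genes were higher and TyrGTA ran from 1.10 to 2.27. In experiment 1, 0 to 2 entries were higher and 0 to 13 lower, TrpCCA tRF5 ran from -1.21 to -0.55, TyrGTA tRF3a from -1.41 to -0.91, TyrGTA tRF3b from -0.081 to 0.20 and TyrGTA tRF5 from -0.89 to -0.47. In experiment 2, 0 to 4 entries were higher and TyrGTA tRF3a ran from -0.12 to 0.12. Over both, 2 to 8 entries were higher and 0 to 4 lower, TrpCCA tRF3a ran from 0.34 to 0.56, TyrGTA tRF3a from -0.64 to -0.30 and TyrGTA tRF5 from -0.65 to -0.36. For the difference of experiments, 0 to 11 entries were higher and 0 to 1 lower, PheGAA tRF3a ran from 0.53 to 1.44, PheGAA tRF3b from 0.48 to 1.38 and TyrGTA tRF3a from 0.48 to 1.37. Of the ratios, 311 of 318 values and of the shares all 243 counted as unchanged. That meant within 1 SD of the value reported, or, for results over both experiments, either within 1 SD or of the same direction. The other 7 ratios moved when the most counted entry of each amino acid was left out.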
